A study of Mus musculus with 8 samples.

Results

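The Snrpn-Ndn imprinted cluster of mouse chromosome 7 was followed through 5 genes, Snrpn, Ndn, Magel2, Mkrn3 and Peg12, taken by symbol from a table of 23284 genes in 8 RNA-seq libraries of induced pluripotent stem cells (iPSCs). All 5 had a row with a value in every library. Such cells come from embryonic fibroblasts that were reprogrammed to pluripotency, and they were kept on a layer of feeder cells. The doxycycline (dox) group held 2 clones of a miR-203 knock-in line, ColA1_miR203 (KI/KI); Rosa26rtTA (KI/KI), given dox for 5 days and then kept 2 weeks without it. The vehicle group held 2 clones of the same genotype without dox. Both knock-in groups thus carry 2 copies each of the miR-203 transgene at ColA1 and of rtTA, the dox-dependent activator, at Rosa26. Wild-type iPSCs, ColA1_miR203 (+/+); Rosa26rtTA (+/+), were transfected with siRNA against Dnmt3a, Dnmt3b, both or a control (siControl) and collected after 1 week, with 1 library each. The labels number the clones but name no separate animals, and each wild-type siRNA has a single library, so p-values measure only the spread between these libraries, which may be technical.

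An imprinted gene is read from 1 parental copy. In this region the copy inherited from the father is active, and the copy from the mother is silenced by DNA methylation laid down in the egg at an imprinting centre around the Snrpn promoter. Loss of the active paternal copies in people causes Prader-Willi syndrome, and the neighbouring Ube3a, read from the maternal copy in neurons, is the Angelman syndrome gene. The cluster is best known in brain, and its members are also used to judge whether cultured stem cells have kept their imprints. The table gives 1 value per gene and does not separate the parental copies.

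Snrpn encodes SmN, a protein of the small nuclear ribonucleoproteins that splice messenger RNA, and its promoter is shown because it lies at the imprinting centre. On GRCm38 the annotated gene spanned chr7:59982495-60140219 on the minus strand, with 2 transcripts of 10 to 11 exons. The 4 other genes each have 1 transcript with 1 exon and lie 2.34 Mb away, within 117.9 kb of each other. Ndn is at chr7:62346569-62350262 on the plus strand, Magel2 at chr7:62377010-62381640 on the plus strand, Mkrn3 at chr7:62417593-62420139 on the minus strand and Peg12 at chr7:62461871-62464510 on the minus strand. The promoters of Magel2, Mkrn3 and Peg12 are shown beside that of Snrpn because Magel2 and Peg12 had the lowest share of their wild-type level in vehicle knock-in clones while Mkrn3, which lies between them, had the highest. Each window, from RefSeq on GRCm38.p6, runs from 250 bases before to 50 bases after the start of transcription and is written 5′ to 3′ on the gene's own strand, with every CpG, the pair of bases that carries methylation, in capitals.
Snrpn, chr7:60005150-60005449, minus strand: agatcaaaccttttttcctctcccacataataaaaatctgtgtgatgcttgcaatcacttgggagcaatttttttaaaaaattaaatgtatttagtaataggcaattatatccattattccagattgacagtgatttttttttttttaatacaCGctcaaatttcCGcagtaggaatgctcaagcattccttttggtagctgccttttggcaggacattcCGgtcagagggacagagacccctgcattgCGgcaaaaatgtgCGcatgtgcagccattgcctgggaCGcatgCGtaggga
Magel2, chr7:62376729-62377028, plus strand: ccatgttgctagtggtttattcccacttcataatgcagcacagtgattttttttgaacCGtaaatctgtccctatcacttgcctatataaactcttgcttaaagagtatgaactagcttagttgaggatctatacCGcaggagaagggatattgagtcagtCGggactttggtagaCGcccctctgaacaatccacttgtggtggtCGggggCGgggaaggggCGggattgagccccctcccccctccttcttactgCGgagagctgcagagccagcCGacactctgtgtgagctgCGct
Mkrn3, chr7:62420104-62420403, minus strand: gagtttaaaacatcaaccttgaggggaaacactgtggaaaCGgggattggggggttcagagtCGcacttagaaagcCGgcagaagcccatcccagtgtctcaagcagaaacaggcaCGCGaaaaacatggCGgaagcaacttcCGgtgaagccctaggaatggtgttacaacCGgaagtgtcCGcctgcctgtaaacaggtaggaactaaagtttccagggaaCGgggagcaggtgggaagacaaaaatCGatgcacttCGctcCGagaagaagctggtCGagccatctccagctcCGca
Peg12, chr7:62464461-62464760, minus strand: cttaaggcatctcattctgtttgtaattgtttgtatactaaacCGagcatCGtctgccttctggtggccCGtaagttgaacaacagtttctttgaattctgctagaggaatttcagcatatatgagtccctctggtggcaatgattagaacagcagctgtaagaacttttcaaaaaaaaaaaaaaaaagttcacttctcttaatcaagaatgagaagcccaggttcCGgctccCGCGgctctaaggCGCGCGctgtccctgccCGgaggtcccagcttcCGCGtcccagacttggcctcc

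The Snrpn window held 7 CpG, the Magel2 window 10, the Mkrn3 window 15 and the Peg12 window 12, and the Ndn window at chr7:62348027-62348326, which lies inside the annotated gene span, held 11. Over all 32851 windows of the RefSeq table the median was 7 CpG, with quartiles of 3 and 20. ZFP57, the zinc finger protein that keeps imprints methylated in the early embryo, binds TGCCGC when it is methylated. Searched on both strands, TGCCGC occurred in the Snrpn window, where it reads GCGGCA at positions 249 to 254 from the 5′ end, and in none of the windows of the other 4 genes. It occurred in 11.6% of all windows. The palindrome CGCATGCG, the core of the sequence bound by the transcription factor NRF1, was looked for after the sequences had been read. It was present at positions 287 to 294 of the Snrpn window and 228 to 235 of the Ndn window, against 1.87% of all windows, and it did not overlap TGCCGC. The stretches around these matches are shown with the motif in capitals.
Snrpn, TGCCGC on the other strand: acccctgcattGCGGCAaaaatgtgcgc
Snrpn, CGCATGCG: attgcctgggaCGCATGCGtaggga
Ndn, CGCATGCG: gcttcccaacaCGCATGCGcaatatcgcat
RefSeq lists 3 further Snrpn starts upstream, with windows at chr7:60047929-60048228, chr7:60140176-60140475 and chr7:60450128-60450427 that hold 4, 3 and 2 CpG. Each had 1 CGCATGCG and no TGCCGC. Without gaps, at the offset with the most identical bases, these upstream windows were 49.5% to 71.0% identical to each other. Compared in the same way, they were 32.1% to 33.0% identical to the window at the imprinting centre. An alignment with gaps was not made and could give higher shares. A match describes the letters of a window and is neither a shown binding site nor a cause of any value here.

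The wild-type libraries expressed all 5 genes, and the order of their levels in FPKM, which are scaled to transcript length, was the same in all 4. Snrpn was highest with a mean of 90.7 FPKM and a range of 85.6 to 94.4. Ndn followed at 23.3 FPKM (21.0 to 25.2) and Peg12 at 18.6 FPKM (17.3 to 19.9), with no overlap between the 2 ranges. Mkrn3 had 2.26 FPKM (1.98 to 2.603) and Magel2 1.503 FPKM (1.37 to 1.84), also without overlap. In the knock-in line the order changed. Peg12 had a lower mean than Mkrn3 in both groups, although the 2 genes overlapped in dox clones, and Magel2 was the lowest throughout.

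**Figure D1:**
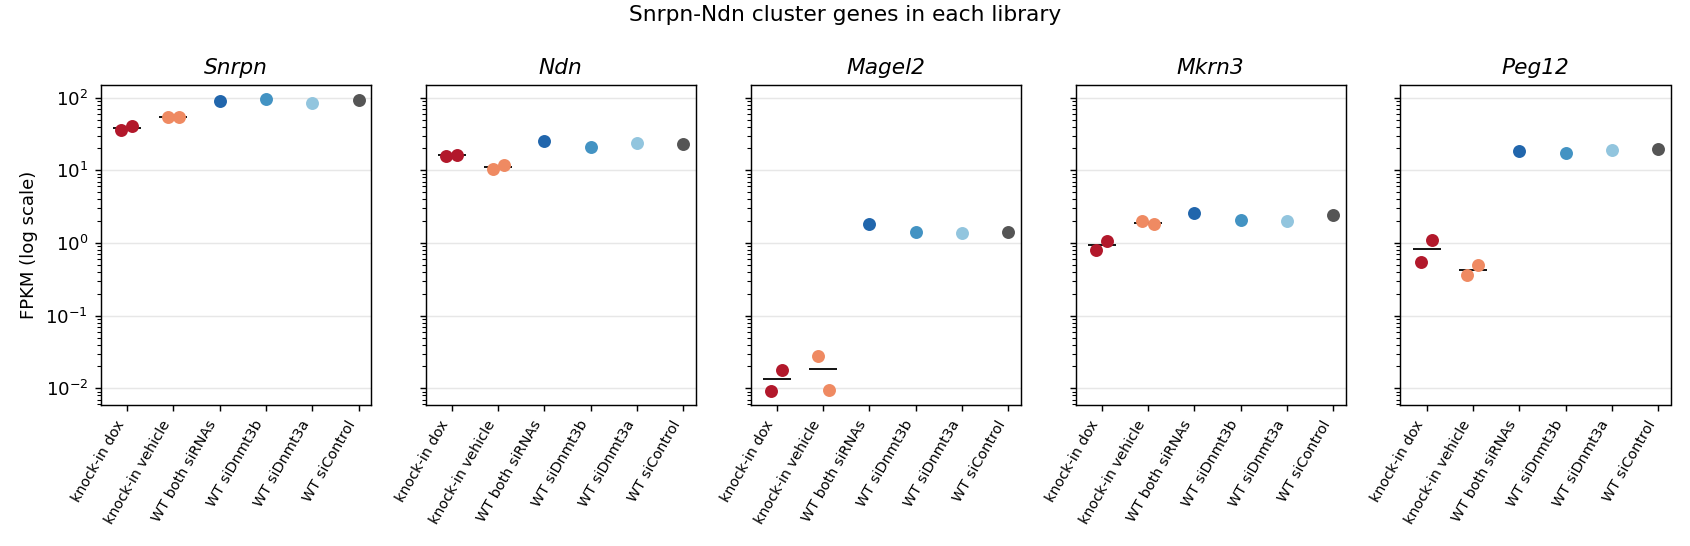
FPKM of the 5 genes in each of the 8 libraries, on a log axis; points are libraries and short lines are means of 2 clones. In the knock-in dox and vehicle clones Magel2 reaches at most 0.0277 FPKM and Peg12 at most 1.12 FPKM, against at least 1.37 and 17.3 FPKM in the 4 wild-type libraries.

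The difference between the lines was largest for Peg12 and Magel2, which kept only a small share of their wild-type level. Vehicle knock-in clones held 2.29% of the wild-type mean of Peg12 and 1.24% of that of Magel2, whereas Ndn was at 47.6%, Snrpn at 59.6% and Mkrn3 at 84.6%. The 4 wild-type libraries, whatever their siRNA, served as the comparison, and the test was limma on log2(FPKM + 1) with Benjamini-Hochberg adjustment over the 11931 genes with a mean of 1 FPKM or more in the 6 libraries. The lines differ in genotype, clone, transfection and schedule, which cannot be told apart. In bulk RNA, fewer cells of a type and less RNA per cell cannot be told apart either.

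Peg12, also called Frat3, is an intronless gene of the FRAT family, whose members bind the kinase GSK3 and act in Wnt signalling. It had 0.359 and 0.491 FPKM in the 2 vehicle clones, against 18.8, 17.3, 18.4 and 19.9 FPKM in wild-type cells with siDnmt3a, siDnmt3b, both and siControl. The highest vehicle clone was far below the lowest wild-type library. The difference was -3.78 on the log2(FPKM + 1) scale (SE 0.0814, 95% interval -3.97 to -3.59, limma adjusted p = 1.12e-08). By size, 13 of the 11931 genes, Peg12 among them, were as low or lower. Peg12 reached the minimum of 1 FPKM only through the wild-type libraries, so its call and rank carry no weight of their own. With a pseudocount of 0.1 in place of 1 the difference was -5.16. FPKM of these intronless genes step by what 1 sequenced fragment is worth, which lets whole fragments be estimated. That gave 22 and 29 fragments of Peg12 in vehicle clones, against 1198, 1064, 1084 and 1268 in the same order of wild-type libraries. Scaled for depth, vehicle clones held 2.28% of the wild-type fragments (exact 95% interval 1.70% to 3.00%, covering counting error only).

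Magel2 encodes a MAGE-family protein that works with the ubiquitin ligase TRIM27 in the recycling of membrane proteins from endosomes. It had 0.0277 and 0.00959 FPKM in vehicle clones, against 1.37, 1.396, 1.84 and 1.40 FPKM in wild-type cells with siDnmt3a, siDnmt3b, both and siControl. These values correspond to an estimated 3 and 1 fragments in vehicle clones, against 154, 152, 192 and 158 in wild-type libraries. Magel2 was therefore at the limit of detection in the knock-in line and clearly present in every wild-type library. The fragment ratio was 1.26% of wild-type (exact 95% interval 0.342% to 3.24%, counting error only). The fitted difference of -1.29 (SE 0.104, limma adjusted p = 8.74e-06) was -3.75 with a pseudocount of 0.1, since a pseudocount of 1 is close to the gene's own level. Magel2 also reached the minimum of 1 FPKM only through the wild-type libraries, so its call carries no weight of its own.

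Ndn encodes necdin, a MAGE-family protein that restrains cell growth and binds E2F1 and p53. It had 10.4 and 11.8 FPKM in vehicle clones, against 23.8, 20.98, 25.2 and 23.3 FPKM in wild-type cells with siDnmt3a, siDnmt3b, both and siControl. The groups did not overlap. The difference was -1.01 (SE 0.0859, 95% interval -1.20 to -0.81, limma adjusted p = 1.28e-05). In fragments, Ndn in vehicle clones was 47.6% of wild-type (exact 95% interval 44.1% to 51.3%, counting error only).

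Snrpn had 54.6 and 53.5 FPKM in vehicle clones, against 85.6, 94.4, 91.3 and 91.5 FPKM in wild-type cells with siDnmt3a, siDnmt3b, both and siControl. Both vehicle clones were below every wild-type library. The difference was -0.74 (SE 0.0615, 95% interval -0.88 to -0.60, limma adjusted p = 1.12e-05). Snrpb, the widely expressed paralog that encodes SmB, was also lower, at 250.4 FPKM in vehicle clones and 401.5 FPKM in wild-type libraries (difference -0.67, limma adjusted p = 2.65e-04).

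Mkrn3 encodes a makorin, a RING finger ubiquitin ligase whose loss in people causes early puberty. It had 1.997 and 1.83 FPKM in vehicle clones, against 1.98, 2.05, 2.603 and 2.41 FPKM in wild-type cells with siDnmt3a, siDnmt3b, both and siControl. The groups overlapped, since vehicle clone 1 exceeded the siDnmt3a library. The difference of -0.16 did not pass the test (95% interval -0.39 to 0.07, limma adjusted p = 0.192). The interval leaves room for a loss of up to 0.39 on the log2(FPKM + 1) scale. With a pseudocount of 0.1 its lower end was -0.56. Mkrn3 sits between Magel2 and Peg12 on the chromosome, so the pair with the lowest share of wild-type signal flanks the gene with the highest share.

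Of the 5 genes, Snrpn, Ndn, Magel2 and Peg12 passed the threshold of 0.05 as lower in vehicle knock-in clones. This share has to be read against a background in which 66.6% of all genes passed in either direction and 32.9% passed as lower. Magel2 and Peg12 reached the minimum of 1 FPKM only through the wild-type libraries, so they had to differ once fitted and their calls carry no weight of their own. By size, 5.77% of all genes were as low or lower than Ndn, 9.92% than Snrpn and 37.4% than Mkrn3. For Magel2 the share was 3.61%, a rank with the same limit as its call. Rescaling the libraries to a common sum moved the median of all genes to 0.11 and left the calls of the 5 genes as they were.

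**Figure D2:**
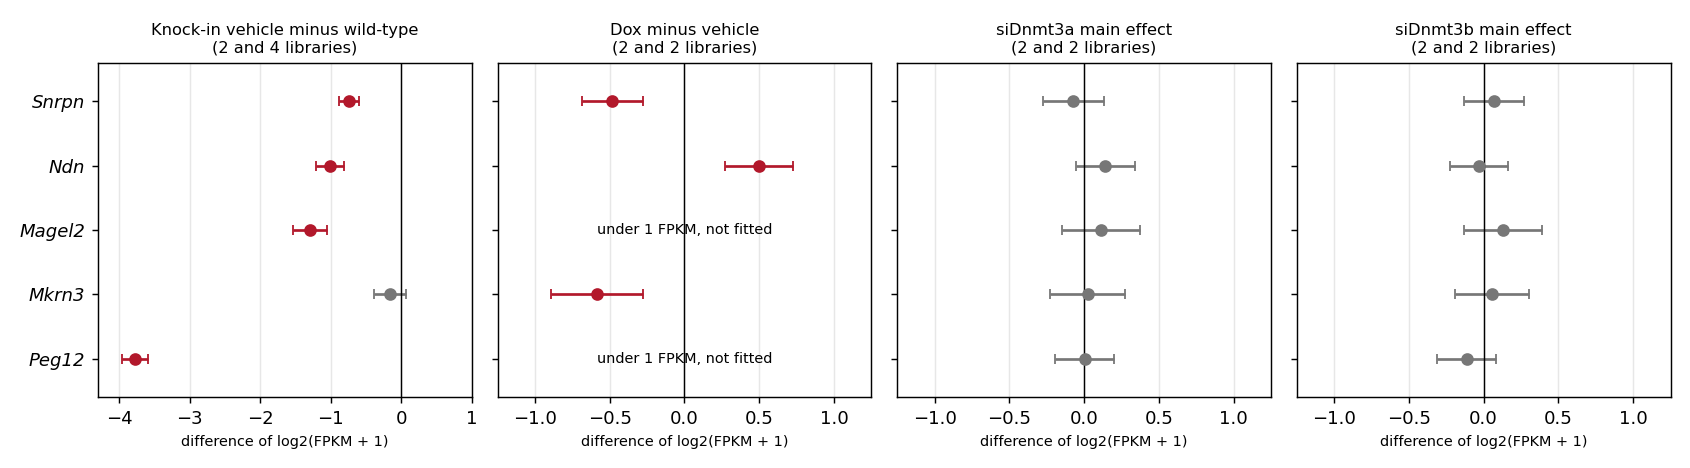
Differences of log2(FPKM + 1) with 95% intervals in the 4 limma fits, red where the adjusted p is under 0.05 and grey where it is not. The panel of the lines shows Peg12 at -3.78 and Mkrn3 near 0, the dox panel shows Ndn at 0.50 opposite to Snrpn at -0.48 and Mkrn3 at -0.59, and both siRNA panels stay around 0.

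After transient dox, Ndn was higher than in vehicle clones while Snrpn and Mkrn3 were lower, so the cluster did not move as a block. Ndn in dox clones was 145% of vehicle, Snrpn 71.2% and Mkrn3 49.4%. Magel2 and Peg12 had a mean under 1 FPKM in these 4 libraries and were not fitted. All 3 genes that were fitted passed, against a background of 31.9% of 11927 genes (17.1% higher, 14.8% lower). With clone number as a block, 6242 of all genes passed in place of 3802, and all 3 genes still passed.

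Ndn had 15.8 and 16.4 FPKM in dox clones 1 and 2, against 10.4 and 11.8 FPKM in vehicle clones 1 and 2. The means were 16.1 ± 0.479 FPKM with dox and 11.1 ± 1.01 FPKM with vehicle (SD, n = 2 each), and the groups did not overlap. The difference was 0.50 (SE 0.0947, 95% interval 0.27 to 0.73, limma adjusted p = 0.0118), and between clones of the same number it was 0.56 for number 1 and 0.44 for number 2. The labels do not state that equal numbers in the dox and vehicle groups mean the same clone. Ndn in dox clones was still below all 4 wild-type libraries, at 69.1% of their mean. Without vehicle clone 1 the difference was 0.42 and the call was lost (limma adjusted p = 0.0663). The count of fragments gave 145% of vehicle (exact 95% interval 133% to 159%, counting error only). That interval leaves out the spread between clones.

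Snrpn had 36.2 and 40.8 FPKM in dox clones, against 54.6 and 53.5 FPKM in vehicle clones. Its means were 38.5 ± 3.24 FPKM with dox and 54.1 ± 0.739 FPKM with vehicle (SD, n = 2 each). Both dox clones were below both vehicle clones, with a difference of -0.48 (SE 0.0848, 95% interval -0.69 to -0.28, limma adjusted p = 0.00943). Between the clones numbered 1 it was -0.58 and between those numbered 2 it was -0.38. Snrpn in dox clones was thus at 42.4% of the wild-type mean.

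Mkrn3 had 0.812 and 1.08 FPKM in dox clones, against 1.997 and 1.83 FPKM in vehicle clones. Its means were 0.944 ± 0.186 FPKM with dox and 1.91 ± 0.120 FPKM with vehicle (SD, n = 2 each), without overlap. The difference was -0.59 (SE 0.127, 95% interval -0.89 to -0.28, limma adjusted p = 0.0181). Mkrn3 in dox clones was at 41.7% of the wild-type mean. The difference was -0.73 between the clones numbered 1, -0.45 between those numbered 2 and -0.96 with a pseudocount of 0.1. Mkrn3 reached the minimum of 1 FPKM through the vehicle group, and with a minimum of 0.1 it also passed (limma adjusted p = 0.0159). Without vehicle clone 1 the difference was -0.54 and the call was lost (limma adjusted p = 0.0816).

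Peg12 had 0.555 and 1.12 FPKM in dox clones, against 0.359 and 0.491 FPKM in vehicle clones. The lower dox clone was above the higher vehicle clone, and each dox clone was above the vehicle clone of the same number. The difference of 0.35 on the log2(FPKM + 1) scale did not pass the test when the minimum was lowered to 0.1 (limma adjusted p = 0.147). In fragments there were 34 and 71 with dox, against 22 and 29 with vehicle, a ratio of 198% (exact 95% interval 141% to 283%, counting error only). Dox clones stayed at 4.50% of the wild-type mean. Magel2 had 0.00924 and 0.0178 FPKM in dox clones, or 1 and 2 fragments, against 0.0277 and 0.00959 FPKM, or 3 and 1 fragments, in vehicle clones. No difference in Magel2 was detectable at this depth.

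Transfection with siRNA against Dnmt3a or Dnmt3b, the enzymes that place new DNA methylation, left no difference of the 5 genes that passed the test. No knockdown of the targets passed the test either. Dnmt3a was at 59.8 FPKM with siDnmt3a and 69.5 FPKM with both siRNAs, against 77.6 FPKM with siDnmt3b and 75.1 FPKM in siControl (siDnmt3a effect -0.24, limma adjusted p = 0.244). Dnmt3b was at 128.3 FPKM with siDnmt3b and 135.0 FPKM with both, against 134.8 FPKM with siDnmt3a and 146.3 FPKM in siControl (siDnmt3b effect -0.09, limma adjusted p = 0.9997). The 4 libraries were fitted with limma as a 2-by-2 design in which each siRNA is present in 2 of 4 libraries, with 1 residual degree of freedom. By limma, 0 of the 5 genes passed for siDnmt3a, where 2.09% of all genes did (0.768% higher, 1.32% lower), and 0 for siDnmt3b, where 0.452% did (0.188% higher, 0.265% lower). At the deposited scaling the unadjusted p was also above 0.05 for all 5 genes in both fits. The siDnmt3a effect was -0.07 for Snrpn, 0.14 for Ndn, 0.11 for Magel2, 0.02 for Mkrn3 and 0.01 for Peg12, with limma adjusted p between 0.599 and 0.992. For siDnmt3b the values were 0.07, -0.03, 0.13, 0.06 and -0.11 in the same gene order, each with a limma adjusted p of 0.9997. The 95% intervals were widest for Magel2, from -0.15 to 0.38 for siDnmt3a and from -0.13 to 0.39 for siDnmt3b. A change within these intervals was not excluded. Of 20 fitted fibroblast markers, 8 fell for siDnmt3a and 9 for siDnmt3b, and their part in these values was not tested.

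Set against the single siControl library, no gene of the 5 moved by 2-fold in any siRNA library. Such a change was seen for 0.153% of all genes with siDnmt3a, 0.111% with siDnmt3b and 0.239% with both. At the deposited scaling the double siRNA gave its largest difference for Magel2, with 1.84 FPKM, against 1.40 FPKM in siControl, a difference of 0.24 on the log2(FPKM + 1) scale. The SD of that difference over all genes was 0.246. With the libraries rescaled to a common sum, Magel2 differed by 0.15 and Peg12 most, by -0.30 in place of -0.11. Single siRNAs gave their largest differences for Mkrn3 with siDnmt3a at -0.19 and for Peg12 with siDnmt3b at -0.19, where the SD over all genes was 0.159 and 0.134. There was 1 library per group, so these values have no test.

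The flanks of the cluster held genes that were higher and genes that were lower in vehicle clones. Of the 20 listed genes of the Prader-Willi and Angelman region and its flanks, 13 were fitted, and 6 rose, 2 fell and 5 did not pass in vehicle clones, with a median of 0.28. Over all genes 66.6% passed (33.7% higher, 32.9% lower), so the share called in the region was near that of the background. Ube3a had 10.6 FPKM in vehicle clones and 8.28 FPKM in wild-type libraries, and its difference of 0.33 did not pass (limma adjusted p = 0.0715). Atp10a, which encodes a phospholipid flippase and lies next to Ube3a, had 7.38 FPKM in vehicle clones and 3.83 FPKM in wild-type libraries and rose by 0.80 (limma adjusted p = 3.53e-05). On the far side of Peg12, Chrna7, a nicotinic receptor subunit, had 1.52 FPKM in vehicle clones and 3.37 FPKM in wild-type libraries and fell by 0.81 (limma adjusted p = 2.48e-04). Nipa1, a magnesium transporter, was the other gene that fell, by 0.28 (limma adjusted p = 0.0168).

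**Figure D3:**
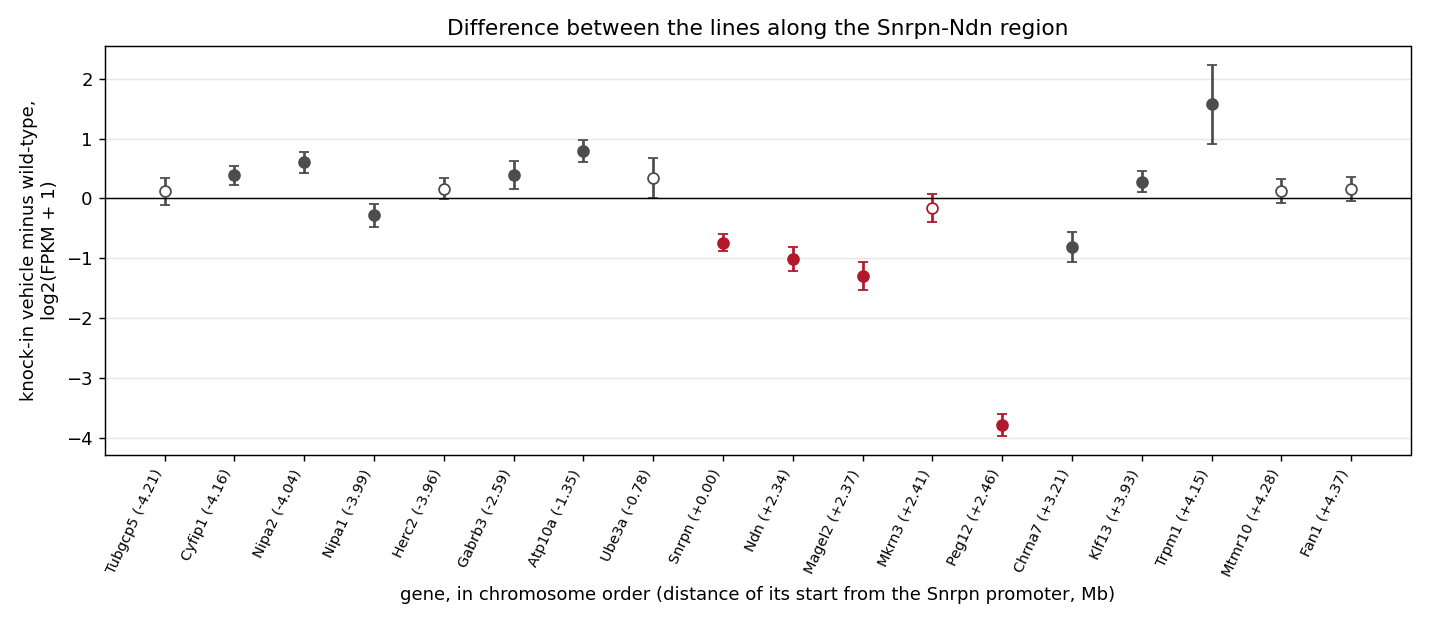
Difference between vehicle knock-in clones and wild-type libraries for each fitted gene of the region, in chromosome order, with 95% intervals. Red marks the 5 cluster genes and dark grey the flanking genes; filled points passed and open points did not, and the drop to -3.78 at Peg12 lies between Mkrn3 at -0.16 and Chrna7 at -0.81.

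Under dox, 1 of the 13 region genes rose, 2 fell and 10 did not pass, with a median of -0.10, where 31.9% of all genes passed (17.1% higher, 14.8% lower). The region was thus not called more often than genes at large. Atp10a had 2.66 FPKM in dox clones and 7.38 FPKM in vehicle clones and was lower (difference -1.198, limma adjusted p = 9.45e-04). Nipa2, also a magnesium transporter, fell by 0.48 (limma adjusted p = 0.00961), and Nipa1 rose by 0.38 (limma adjusted p = 0.0378). Ube3a had 9.07 FPKM in dox clones and 10.6 FPKM in vehicle clones, a difference of -0.20 that did not pass (limma adjusted p = 0.129).

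Other imprinted genes were found on both sides. Of 15 fitted paternally expressed genes outside the cluster, 7 fell, 5 rose and 3 did not pass in vehicle clones relative to wild-type, with a median of -0.29 beside -0.00 for all genes, of which 32.9% fell and 33.7% rose. Nnat, which encodes a small membrane protein, had 5.13 FPKM in vehicle clones and 87.1 FPKM in wild-type libraries, a difference of -3.85 (limma adjusted p = 1.37e-08) that is of the size seen for Peg12. Peg10, derived from a retrotransposon, had 9.15 FPKM in vehicle clones and 69.2 FPKM in wild-type libraries (difference -2.79, limma adjusted p = 3.43e-07). Of 11 maternally expressed genes, 5 fell, 3 rose and 3 did not pass, with a median of -0.13. Cdkn1c, an inhibitor of the cell cycle, had 1.96 FPKM in vehicle clones and 42.9 FPKM in wild-type libraries (difference -3.88, limma adjusted p = 5.59e-08). Both lists thus held genes that were lower and genes that were higher in the knock-in line. Which parental copy was read in these cells was not measured.

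Under dox, 6 of 14 paternally expressed genes fell, 2 rose and 6 did not pass, with a median of -0.25 beside -0.01 for all genes, of which 14.8% fell and 17.1% rose. Peg3, a zinc finger gene, had 10.3 FPKM in dox clones and 17.1 FPKM in vehicle clones (difference -0.69, limma adjusted p = 0.00879), a difference in the direction of Snrpn and Mkrn3. Igf2, a growth factor, had 33.6 FPKM in dox clones and 8.58 FPKM in vehicle clones (difference 1.86, limma adjusted p = 1.82e-04), in the direction of Ndn. Sgce, the other paternally expressed gene that rose, had 5.61 FPKM in dox clones and 2.87 FPKM in vehicle clones. Among 11 maternally expressed genes 5 rose and 3 fell, with H19, a non-coding RNA, at 54.8 FPKM in dox clones and 5.47 FPKM in vehicle clones.

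**Figure D4:**
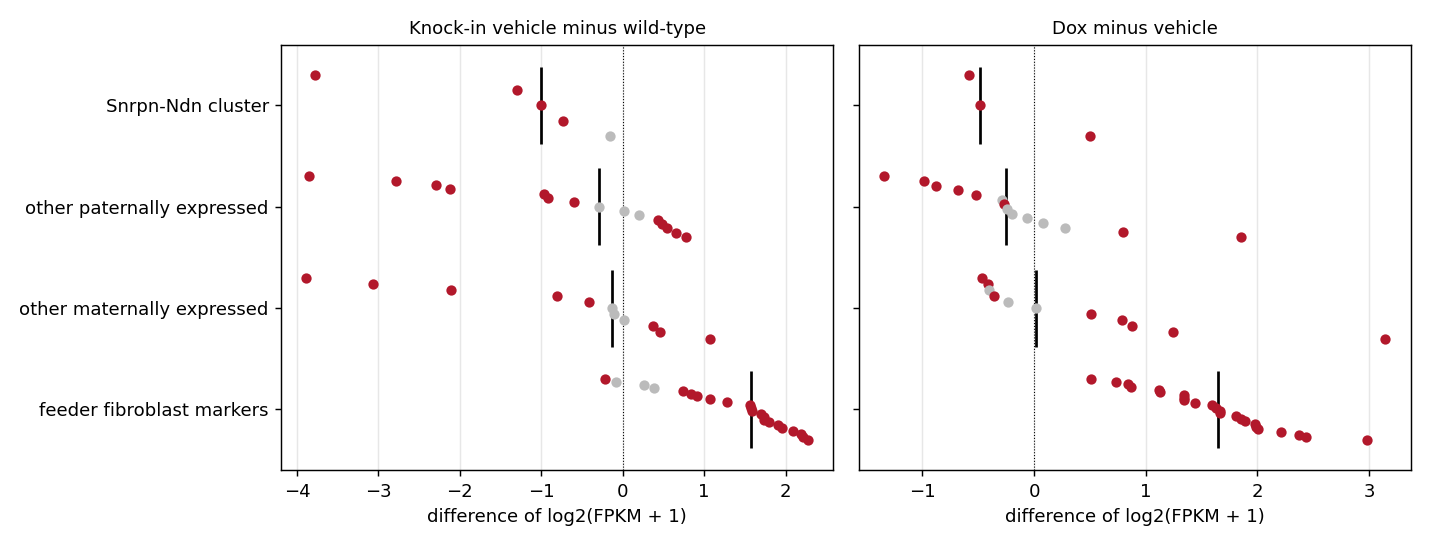
Fitted differences of log2(FPKM + 1) for the cluster, the other imprinted genes and fibroblast markers, for vehicle minus wild-type at left and dox minus vehicle at right. Points are genes, red where they passed and grey where not, and black bars are medians; the fibroblast markers lie mostly to the right of 0 in both panels, with medians of 1.58 and 1.65.

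Markers of other cells moved with both comparisons of the knock-in line. Over all genes, 33.7% were higher and 32.9% lower between the lines, and 17.1% were higher and 14.8% lower under dox. The counts below are to be read beside these shares. Of 22 fitted fibroblast markers, 18 rose and 1 fell in vehicle clones relative to wild-type libraries. Of 24 fitted fibroblast markers, all 24 were higher in dox clones, and their 25 listed genes summed to 2648 and 2739 FPKM in dox clones, against 692.1 and 817.5 FPKM in vehicle clones. The wild-type libraries had sums of 203.7 to 341.2 FPKM, and 1 marker was at 0 in some library. Macrophage markers summed to 369.5 and 473.0 FPKM in dox clones, 258.0 and 291.7 FPKM in vehicle clones and 148.6 to 200.5 FPKM in wild-type libraries, with none at 0. The markers of pluripotent cells had sums of 4552 to 4692 FPKM in dox clones, 3650 to 4058 FPKM in vehicle clones and 3130 to 3924 FPKM in wild-type libraries, of which Dppa5a alone had a mean of 1924 FPKM in dox clones, 1086 FPKM in vehicle clones and 1195 FPKM in wild-type libraries. Between the lines 8 of 13 rose, 3 fell and 2 did not pass, with Tfcp2l1 at 71.2 FPKM in vehicle clones and 7.02 FPKM in wild-type libraries, and Utf1 at 127.9 FPKM in vehicle clones and 252.0 FPKM in wild-type libraries. Under dox 4 rose, 2 fell and 7 did not pass. Neuron markers summed to 177.3 and 177.5 FPKM in dox clones, 222.3 and 233.4 FPKM in vehicle clones and 174.1 to 206.6 FPKM in wild-type libraries, and 2 of 11 were at 0 in some library. Most of this sum was Stmn2, with means of 125.2 FPKM in dox clones, 157.9 FPKM in vehicle clones and 94.5 FPKM in wild-type libraries. Between the lines 2 of 5 fitted neuron markers rose and 3 fell, with a median of -0.90. Of 3 fitted under dox, 2 fell and 1 did not pass. The part of other cells in the values of Ndn, Snrpn, Mkrn3, Magel2 and Peg12 was not tested.

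Of 20 fitted factors that keep imprints and silence genes, 13 fell under dox, none rose and 7 did not pass, with a median of -0.37, where 14.8% of all genes fell. Trim28, the co-repressor recruited by ZFP57, had 378.2 FPKM in dox clones and 631.3 FPKM in vehicle clones (difference -0.74, limma adjusted p = 0.00266). Zfp57 itself had 205.7 FPKM in dox clones and 230.3 FPKM in vehicle clones, and its difference of -0.16 did not pass (limma adjusted p = 0.184). In wild-type libraries Zfp57 had 74.6 FPKM, so it was higher in vehicle clones (difference 1.61, limma adjusted p = 3.08e-07). Hells, which remodels chromatin so that DNA can be methylated, had 52.8 FPKM in dox clones and 93.7 FPKM in vehicle clones (difference -0.82, limma adjusted p = 0.0025). Between the lines, 10 of 21 rose, 7 fell and 4 did not pass, where 33.7% of all genes rose and 32.9% fell. Dnmt3a had 9.20 FPKM in vehicle clones and 70.5 FPKM in wild-type libraries, and Dnmt3b had 62.0 FPKM in vehicle clones and 136.1 FPKM in wild-type libraries. Dnmt3l, the partner of both enzymes, ran the other way, with 221.8 FPKM in vehicle clones and 56.4 FPKM in wild-type libraries. Under dox, Dnmt3b and Dnmt3l fell furthest of the list. Dnmt3b had 21.2 FPKM in dox clones (difference -1.50, limma adjusted p = 5.28e-04) and Dnmt3l had 86.0 FPKM (difference -1.33, limma adjusted p = 0.00629).

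The relatives of the cluster's proteins were mostly lower in vehicle clones than in wild-type cells. Of 10 Sm core and U1 proteins, the setting in which SmN works, 9 fell and 1 did not pass between the lines (median -0.40), and under dox 6 fell and 4 did not pass (median -0.28), where 32.9% and 14.8% of all genes fell. Of 9 fitted paralogs and other MAGE genes, 7 fell between the lines and none rose. Mkrn1, the makorin related to Mkrn3, had 113.1 FPKM in vehicle clones and 215.9 FPKM in wild-type libraries (difference -0.93, limma adjusted p = 2.97e-06), and under dox it was at 84.7 FPKM (difference -0.41, limma adjusted p = 0.0078). Maged1, a MAGE relative of Ndn and Magel2, had 68.8 FPKM in dox clones and 53.4 FPKM in vehicle clones (difference 0.36, limma adjusted p = 0.0127), in the direction of Ndn. Among the partners of MAGE proteins, Trim27 had 33.3 FPKM in vehicle clones and 44.1 FPKM in wild-type libraries (difference -0.40, limma adjusted p = 0.00207), so the ligase that binds Magel2 was present where Magel2 itself was at 1 to 3 fragments.

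Across the 8 libraries the pattern of Magel2 was closest to that of Peg12 among the 5 genes (Pearson r = 0.988), and Ndn and Mkrn3 were the least alike (r = 0.380). These correlations describe 8 libraries that share 2 lines and 2 clone numbers, and which differ in level between the lines for most of the 5 genes. Among 10990 genes, the pattern of Peg12 was most like those of Hoxb8 (r = 0.9996), Hoxb2, Trp53i11, Rasl11a and Pcdh1. Hoxb8 had 0.375 and 0.502 FPKM in dox clones, 0.228 and 0.288 FPKM in vehicle clones and 3.54 to 3.82 FPKM in wild-type libraries. Snrpn was most like Ccrn4l (r = 0.996), Enpp3, Ncapd2, Elmo1 and Acat3, and these all have dox lowest and wild-type highest. Ndn was most like Homer3 (r = 0.997), Mapk3, Abhd8, Nxn and Mtap7d1, in which vehicle clones are the lowest. Mkrn3 was most like Exosc1 (r = 0.988), Zfp13, Dot1l and Rbm28, with dox clones the lowest. Magel2 had a mean under 1 FPKM over the 8 libraries and was not compared.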

How the data were processed

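The authors deposited 1 table of FPKM, fragments scaled to transcript length and library size, with a column for each of 8 libraries. Per the labels' protocols, polyadenylated RNA was sequenced as strand-specific libraries on a HiSeq2500. The submitters' processing notes name Cufflinks 2.2.1 and Cuffnorm, TopHat2 2.0.10 with Bowtie 1.0.0, and SAMtools 0.1.19, on GRCm38 (mm10). No annotation release, strand setting or library scaling is given in these sources. Because FPKM are relative to the library, more RNA of abundant genes lowers the values of the rest.

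The FPKM summed to 486917 to 586657 per library, with 11620 to 12076 genes at 1 FPKM or more. Depth in reads is unknown. Relative depth, from the steps of genes under 0.3 FPKM, was 92.4% to 100% of siControl, with 9.71% to 16.5% of these genes at the step. Whole fragments were the smallest numbers, within 0.02, that fitted all 8 libraries. For Mkrn3 the step was out of scale with its length (83.2 against 41.4 for the other 3 intronless genes), and Snrpn has several transcripts, so neither is given in fragments.

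Groups came from the labels. Fits used limma 3.58.1 in R 4.3.3 with a trend on log2(FPKM + 1), a minimum mean of 1 FPKM, two-sided tests, Benjamini-Hochberg adjustment over all genes fitted and a threshold of 0.05, and were tested on simulated data. The labels number clones 1 and 2 in both knock-in groups, and the clone differences in dox and vehicle correlated (r = 0.441 across 11927 genes), so the clone number was tried as a replicate block. Other pseudocounts, minimums, scalings and left-out libraries were also tried. Positions are from GENCODE M21 on GRCm38 and promoters from RefSeq on GRCm38.p6; all 5 genes matched by symbol. The genes and 11 lists (166 entries, 160 in the table) were chosen with earlier results of these data known. Beyond the 5 genes and the region, named genes are up to 6 of each list with the largest dox difference, the siRNA targets, Snrpb and the 5 most similar genes of each cluster gene, of which 1 is not reported here.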

Additional observations from a re-analysis of the deposited data

How the results depend on the processing

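The directions of Snrpn, Ndn, Magel2 and Peg12 between the lines and of Snrpn, Ndn and Mkrn3 under dox held in every alternative that could fit them. A pseudocount of 0.1 gave -3.75 for Magel2 between the lines and -0.96 for Mkrn3 under dox. Left-out libraries gave 0.42 to 0.59 for Ndn and -0.68 to -0.49 for Mkrn3 under dox, with calls lost without vehicle clone 1 (1 to 3 of the members called), and 0.13 to 0.57 for Peg12, whose difference was 0.78 with a pseudocount of 0.1, with or without a minimum of 0.1. The count of all genes called under dox, 3802, was 2498 with no minimum, 6242 with the replicate block and 1638 to 4057 with a library left out; pairing by clone number changed no call of the members (limma adjusted p 2.52e-04 for Snrpn, 4.45e-04 for Ndn, 0.00247 for Mkrn3). For siDnmt3a, 245 genes became 105 with a pseudocount of 0.1, 24 with a minimum of 0.1, 0 with none, 18 after rescaling to a common sum and 3 after quantile normalization. For siDnmt3b, 53 became 29, 8, 0, 4 and 0 in the same order. Beside these limma counts of 0, 941, 610 and 295 genes had an unadjusted p under 0.05. Rescaling turned the sign of Mkrn3 and Peg12 for siDnmt3a (-0.06 and -0.10) and of Snrpn and Mkrn3 for siDnmt3b (-0.02 and -0.01), none of them called. It also moved Snrpn to -0.18 for siDnmt3a, with a limma unadjusted p of 0.0385 and a limma adjusted p of 0.337. The causes were not tested. Magel2 between the lines could not be fitted without any 1 wild-type library or against siControl alone, since its mean then fell under 1 FPKM, and the 2-by-2 fit leaves no degrees of freedom for leaving a library out. The numbers of replicates and the few fragments of Magel2 limit what could be seen.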

Other observations

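Snurf, whose short coding sequence lies on the Snrpn transcript, had a row of its own at 0.0814 to 0.112 FPKM in all 8 libraries. It overlaps Snrpn on the same strand, so the split of fragments between them is uncertain. Ipw, a non-coding RNA of the region, had 0 to 0.117 FPKM and was at 0 in 4 libraries. Trpm1, an ion channel gene of the flank, had 4.84 and 1.38 FPKM in vehicle clones 1 and 2 and a mean of 0.254 FPKM in wild-type libraries. It rose by 1.57 (limma adjusted p = 0.00134), the highest difference among the flanking genes fitted. Trpm1 reached the minimum of 1 FPKM only through the vehicle clones, so its call carries no weight of its own.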
